A study of Mus musculus with 20 samples.

Results

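De novo lipogenesis is the pathway by which the liver turns sugar carbon into fatty acids. Its 10 genes described here are the regulators Srebf1 and Mlxipl, the carbon and NADPH suppliers Acly and Me1, the carboxylases Acaca and Acacb, the fatty acid synthase gene Fasn with its partner Thrsp, and the glycerolipid enzymes Gpam and Dgat2. They were chosen by symbol, and each of the 10 has 1 gene-level probe set among the 16464 probe sets with 1 symbol, of 17306 in all. The livers were those of C57BL/6 males, 10 weeks old and of 21 to 27 g, gavaged for 25 days; the central piece of the left lateral lobe was used. The 4 groups of 5 arrays were ethinylestradiol (EE2, a synthetic estrogen) at 3.70 mg/kg in sunflower oil, sunflower oil alone, chlorpromazine (CPZ, an antipsychotic drug) at 10 mg/kg in PBS (phosphate-buffered saline), and PBS alone. Either compound can impair bile flow (cholestasis). All groups share strain, sex and age, arrays are named by the sample number in the labels, and no label says that each number is a separate animal, so the spread behind each p-value is that between samples, which may be technical.

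In hepatocytes, insulin raises SREBP-1c, a product of Srebf1, which binds the promoters of the lipogenic enzymes after its precursor has been carried from the endoplasmic reticulum by SCAP and cut in the Golgi. Sugar metabolites activate ChREBP, the product of Mlxipl, which binds many of the same promoters, and LXR, a receptor for oxysterols, raises transcription of Srebf1. ATP citrate lyase, encoded by Acly, turns citrate into acetyl-CoA; the carboxylases make malonyl-CoA; fatty acid synthase uses malonyl-CoA and NADPH to build palmitate; and acyltransferases join fatty acids to glycerol. A probe set per gene cannot separate the SREBP-1a from the SREBP-1c transcript, and mRNA levels do not report the cleavage of SREBP or the phosphorylation of the carboxylases.

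The promoter windows of 4 members are shown because they hold the members' matches to the E box, the sterol element of SREBP and the nuclear receptor repeat. Each runs from 250 bases before to 50 bases after a RefSeq transcription start on the mouse build GRCm38.p6, read along the gene's strand, and capitals mark motif matches. Searched on both strands were the E box CACGTG, the CCAAT box, the GC box GGGCGG, the sterol element core CACCCCAC and a spaced repeat of the kind that nuclear receptors such as LXR bind. In the Srebf1 window at chr11:60210422-60210721 (minus strand) the nuclear receptor repeat begins 182 bases before the start, and in the Fasn window at chr11:120824498-120824797 (minus strand) it begins 225 bases before it. The Mlxipl window at chr5:135089640-135089939 (plus strand) has the E box 98 bases before the start. The Gpam window at chr19:55127189-55127488 (minus strand) has the sterol element core 180 bases before the start.
Srebf1: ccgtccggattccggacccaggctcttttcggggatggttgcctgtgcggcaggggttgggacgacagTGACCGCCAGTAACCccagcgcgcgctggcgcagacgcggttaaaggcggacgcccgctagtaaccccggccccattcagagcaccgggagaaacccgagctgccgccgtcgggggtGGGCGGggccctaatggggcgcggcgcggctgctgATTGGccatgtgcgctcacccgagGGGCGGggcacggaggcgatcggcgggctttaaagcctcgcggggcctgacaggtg
Mlxipl: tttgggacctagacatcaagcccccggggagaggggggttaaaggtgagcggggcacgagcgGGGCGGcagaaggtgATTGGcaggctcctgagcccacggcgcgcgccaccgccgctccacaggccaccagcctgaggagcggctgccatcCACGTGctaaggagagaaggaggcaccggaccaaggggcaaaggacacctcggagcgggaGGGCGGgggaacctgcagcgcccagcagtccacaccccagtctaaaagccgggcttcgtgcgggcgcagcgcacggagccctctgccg
Fasn: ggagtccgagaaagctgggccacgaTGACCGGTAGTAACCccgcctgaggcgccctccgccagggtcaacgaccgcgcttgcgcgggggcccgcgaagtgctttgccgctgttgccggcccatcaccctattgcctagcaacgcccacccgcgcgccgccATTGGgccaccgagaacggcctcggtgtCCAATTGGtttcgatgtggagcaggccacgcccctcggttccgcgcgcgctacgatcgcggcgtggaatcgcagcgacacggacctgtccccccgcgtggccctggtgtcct
Gpam: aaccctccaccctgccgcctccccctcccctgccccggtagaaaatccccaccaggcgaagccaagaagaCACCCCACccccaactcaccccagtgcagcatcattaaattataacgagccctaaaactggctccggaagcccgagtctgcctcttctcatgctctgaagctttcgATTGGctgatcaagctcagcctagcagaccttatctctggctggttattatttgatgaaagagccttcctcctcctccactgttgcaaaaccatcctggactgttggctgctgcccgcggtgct
RefSeq windows matched 9 of the members, with 14 windows in all, and Dgat2 is named only. The nuclear receptor repeat was found in 2 of the 14 windows and in 0.718% of all 32851 windows. The sterol element core was found in 1 of the 14 and in 2.87% of all, and the E box in 1 of the 14 and in 7.15% of all. The CCAAT box, which NF-Y binds, was found in 9 of the 14 windows and in 37.4% of all, and its matches at 62 and 59 bases before the Fasn start overlap. The GC box was found in 6 of the 14 windows and in 35.7% of all. These are matches of letters in a window and were not measured as binding sites.

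Values are log2 levels on the scale deposited by the authors (RMA), so a change of 1 is a 2-fold change, and levels are not compared between genes. Array medians ran from 4.64 to 4.67 in EE2 livers, against 4.47 to 4.51 in oil livers, and from 4.50 to 4.54 in CPZ livers, against 4.48 to 4.51 in PBS livers. Arrays of 1 group correlated at 0.994 to 0.997 across genes. Against oil, EE2 moved the median of all genes by -0.07 as deposited and by -0.23 after arrays were centred on their medians, and changes of members can be read against those shifts. Liver identity was checked with 8 hepatocyte markers, whose mean level lay between 12.69 and 12.73 on EE2 arrays, against 12.76 to 12.78 on oil arrays. With EE2, 4 of the 8 fell and 1 rose (6 and 0 after centring), by the rule given below. Of all genes, 26.7% were called lower and 19.2% higher (59.4% and 12.5% after centring). The part of the hepatocyte markers in the results below was not tested. The mean level of 6 adipocyte markers was 3.35 to 3.51 on EE2 arrays, against 3.59 to 3.77 on oil arrays, close to the lower quartile of all genes (3.06 in EE2 and 3.16 in oil livers).

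EE2 livers had less mRNA of both lipogenic regulators, of Acacb and of both glycerolipid enzymes than oil livers, while no change passed the test for the genes that make palmitate. Srebf1, Acacb, Mlxipl, Gpam and Dgat2 fell, in that order of size, by 1.11 to 0.53 on the log2 scale. Acaca, Acly, Fasn, Me1 and Thrsp did not pass the test, with changes of 0.41 to 0.05. Calls required a limma p (two-sided, Benjamini-Hochberg over the 16464 genes) of under 0.05 after adjustment. By this rule 5 of the 10 members fell and 0 rose, beside 26.7% of all genes called lower and 19.2% called higher. An unadjusted limma p under 0.05 was found for 6 members, beside 8714 of the 16464 genes. After arrays were centred on their medians the members' counts were again 5 and 0, beside 59.4% of all genes called lower and 12.5% called higher, so on that scaling the share of members called lower is not above that of all genes. The members' median change was -0.24.

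**Figure D1:**
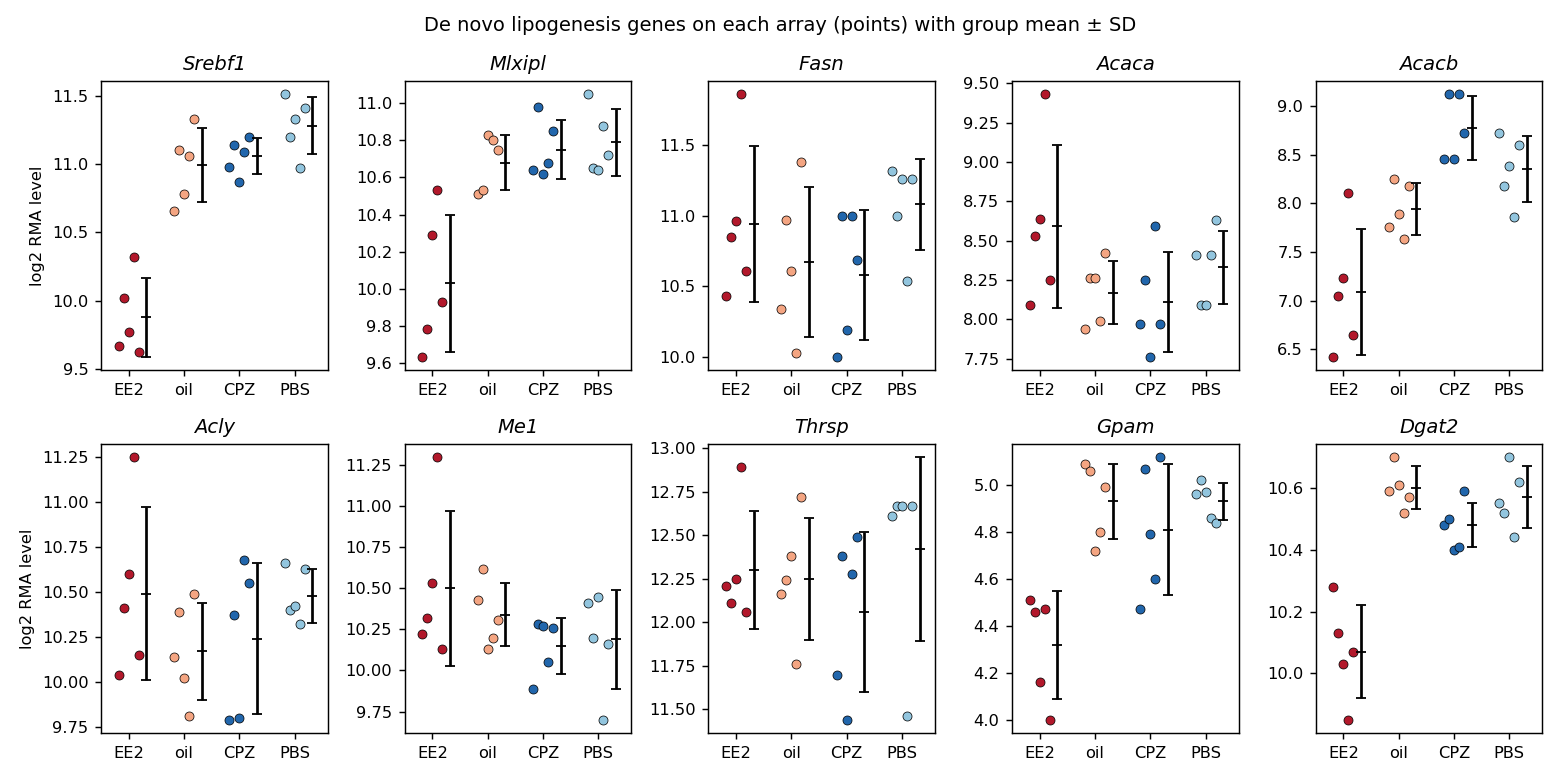
Log2 RMA level (vertical axes, 1 panel per gene with its own range) on each array in EE2, oil, CPZ and PBS livers. Points are arrays, and the bar beside each group is its mean ± SD (n = 5); EE2 and oil points are apart for Srebf1, Gpam and Dgat2 and overlap for Fasn and Thrsp.

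Srebf1 encodes the SREBP-1 precursors. Its levels on EE2 arrays 9, 13, 15, 17 and 18 were 9.67, 10.02, 9.77, 10.32 and 9.63, against 10.66, 11.10, 10.78, 11.06 and 11.33 on oil arrays 2, 5, 6, 8 and 16. Every EE2 array was below every oil array. Means were 9.88 ± 0.29 in EE2 and 10.99 ± 0.27 in oil livers (SD, n = 5 each), a fall of 1.11 (SE 0.14, 95% interval -1.39 to -0.82), or 2.15-fold, with a limma adjusted p of 1.05e-06. On CPZ arrays 1, 3, 4, 11 and 12 the levels were 10.98, 11.14, 10.87, 11.09 and 11.20, against 11.51, 11.20, 11.33, 10.97 and 11.41 on PBS arrays 7, 10, 14, 19 and 20, and these groups overlap. The group means ordered EE2, oil, CPZ and PBS from low to high, and the step from oil to PBS did not pass the test.

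Mlxipl encodes ChREBP, which answers to sugar. Its levels on EE2 arrays were 9.63, 9.78, 10.29, 10.53 and 9.93, against 10.51, 10.53, 10.83, 10.80 and 10.75 on oil arrays, in the same order of sample numbers. EE2 array 17 was level with the lowest oil arrays, and the other EE2 arrays were below all of them. Means were 10.03 ± 0.37 and 10.68 ± 0.15 (SD, n = 5 each), and the change was -0.65 (SE 0.13, 95% interval -0.93 to -0.37, limma adjusted p 0.000511). CPZ livers averaged 10.75 ± 0.16 and PBS livers 10.79 ± 0.18, so EE2 livers alone stood below the other groups by more than these SDs.

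Acly and Me1 supply acetyl-CoA and, through malic enzyme 1, NADPH. Acly levels on EE2 arrays were 10.04, 10.41, 10.60, 11.25 and 10.15, against 10.14, 10.39, 10.02, 9.81 and 10.49 on oil arrays. Me1 levels on EE2 arrays were 10.22, 10.32, 10.53, 11.30 and 10.13, against 10.43, 10.62, 10.13, 10.20 and 10.31 on oil arrays. For both genes EE2 array 17 was the highest array and the remaining EE2 arrays lay among the oil arrays or slightly above them. The changes were 0.32 for Acly (95% interval -0.10 to 0.74, limma adjusted p 0.206) and 0.16 for Me1 (95% interval -0.20 to 0.53, adjusted p 0.466). Without array 17 they were 0.13 and -0.04.

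Of the 2 acetyl-CoA carboxylase genes, Acacb fell with EE2, while the change of Acaca did not pass the test. Acaca encodes the cytosolic enzyme, whose malonyl-CoA feeds fatty acid synthesis, and Acacb the enzyme at the mitochondrial surface, whose malonyl-CoA inhibits CPT1 and with it fatty acid oxidation. Acaca levels on EE2 arrays were 8.09, 8.53, 8.64, 9.43 and 8.25, against 7.94, 8.26, 8.26, 7.99 and 8.42 on oil arrays, and the groups overlap. Its change of 0.41 (95% interval 0.01 to 0.82) missed the threshold with a limma adjusted p of 0.0888, was 0.20 without EE2 array 17, and passed without EE2 array 9, at 0.54 with an adjusted p of 0.0307. Acacb levels on EE2 arrays were 6.42, 7.05, 7.23, 8.11 and 6.65, against 7.76, 8.25, 7.89, 7.63 and 8.18 on oil arrays. Only EE2 array 17 reached the oil range. Acacb fell by 0.85 (SE 0.24, 95% interval -1.36 to -0.35, adjusted p 0.00695), and by 1.11 without array 17.

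Fasn encodes fatty acid synthase. Its levels on EE2 arrays were 10.43, 10.85, 10.96, 11.86 and 10.61, against 10.34, 10.97, 10.61, 10.03 and 11.38 on oil arrays. The spread within each group was wider than the distance between the means of 10.94 ± 0.55 and 10.67 ± 0.53 (SD, n = 5 each). The change was 0.28 (95% interval -0.29 to 0.84, limma adjusted p 0.419), so a fall as large as that of Srebf1 lies outside its interval. Thrsp (Spot 14), a small protein that promotes lipogenesis and answers to thyroid hormone and carbohydrate, had 12.21, 12.11, 12.25, 12.89 and 12.06 on EE2 arrays, against 12.16, 12.24, 12.38, 11.76 and 12.72 on oil arrays. Its groups overlap, and its change of 0.05 (95% interval -0.45 to 0.56, adjusted p 0.873) was -0.09 without EE2 array 17 and -0.11 after centring.

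Gpam encodes the mitochondrial glycerol-3-phosphate acyltransferase of the first step of glycerolipid synthesis, and Dgat2 the acyltransferase of the last step of triglyceride synthesis. Gpam levels on EE2 arrays were 4.51, 4.46, 4.16, 4.47 and 4.00, against 5.09, 5.06, 4.72, 4.80 and 4.99 on oil arrays. Every EE2 array was below every oil array, and all these values are near the array medians, where a log2 change on arrays is usually understated. Gpam fell by 0.61 (SE 0.12, 95% interval -0.86 to -0.36, limma adjusted p 0.000275). Dgat2 levels on EE2 arrays were 10.28, 10.13, 10.03, 9.85 and 10.07, against 10.59, 10.70, 10.61, 10.52 and 10.57 on oil arrays, again without overlap. Dgat2 fell by 0.53 (SE 0.07, 95% interval -0.67 to -0.39, adjusted p 1.98e-06), or 1.44-fold, and its SD of 0.07 in oil livers was the smallest among the members there. Srebf1, Gpam and Dgat2 were thus the 3 members with all EE2 arrays below all oil arrays, beside 17.2% of all genes.

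**Figure D2:**
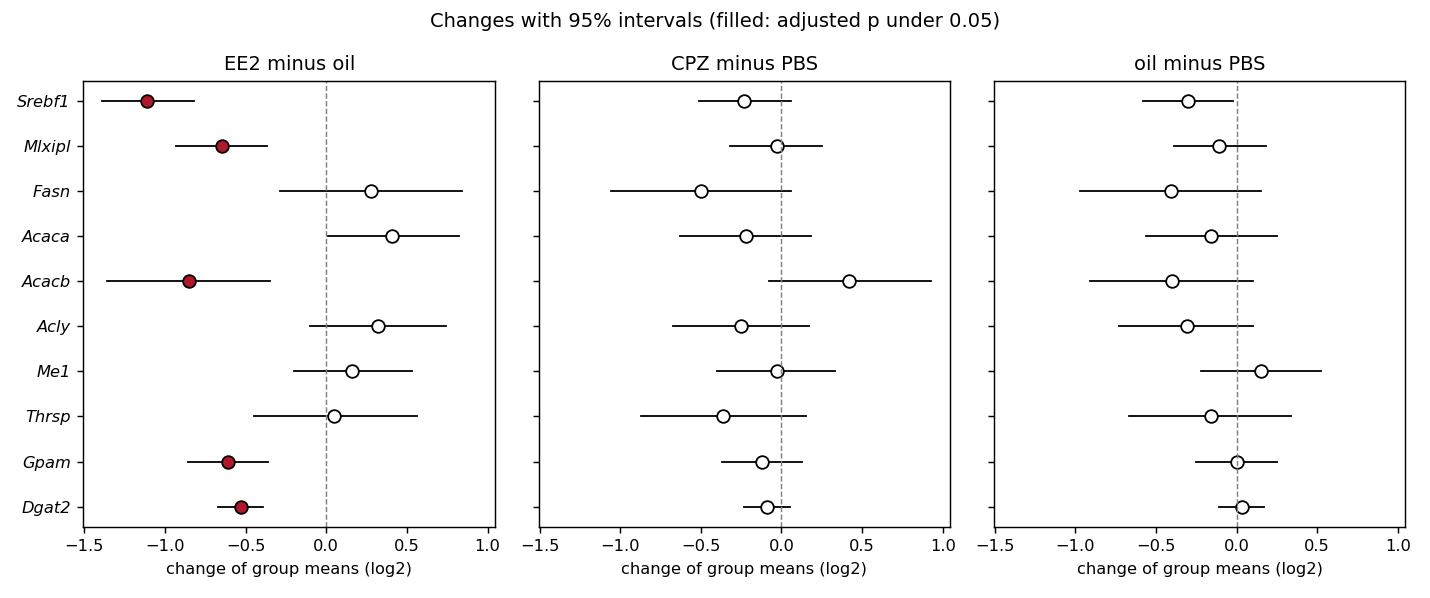
Change of group means (horizontal axes, log2) with 95% intervals for each member in EE2 minus oil, CPZ minus PBS and oil minus PBS livers; filled points had a limma adjusted p under 0.05. Filled points are Srebf1, Mlxipl, Acacb, Gpam and Dgat2 in the EE2 panel, and the other panels have none.

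All 5 members that fell remained called after quantile normalization, after centring and without each array in turn. After centring, where 59.4% of all genes were called lower, the falls were 1.27 for Srebf1, 0.81 for Mlxipl, 1.01 for Acacb, 0.77 for Gpam and 0.69 for Dgat2. EE2 livers also held more RNA of immune cells. The 9 macrophage markers had a mean level of 8.61 to 9.26 on EE2 arrays, against 7.37 to 7.70 on oil arrays, and 8 of the 9 rose. Of the 6 neutrophil markers 5 rose, with a mean level of 5.78 to 6.16 on EE2 arrays, against 4.11 to 4.43 on oil arrays, and 4 of 6 lymphocyte markers rose. After centring 8 macrophage, 4 neutrophil and 4 lymphocyte markers rose, and 1 lymphocyte marker fell. Of all genes, 19.2% were called higher, or 12.5% after centring. The part of immune cells in the falls of the members was not tested, and in whole liver fewer cells of a type and less RNA per cell cannot be told apart.

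Within each array the difference between paired genes removes any shift common to that array. The 3 pairs were chosen after their values had been seen, so their values are a description with no test. Acacb minus Acaca was -1.67 to -1.32 on EE2 arrays, against -0.36 to -0.01 on oil arrays, a difference of means of -1.27. The same difference was 0.48 to 0.87 on CPZ arrays, against -0.55 to 0.31 on PBS arrays, a difference of means of 0.64. The arrays did not overlap in either comparison, but how many gene pairs separate in this way was not counted. With CPZ neither carboxylase gene passed the test (limma adjusted p 0.721 for Acaca and 0.521 for Acacb). Srebf1 minus Fasn was -1.54 to -0.76 on EE2 arrays, against -0.05 to 1.03 on oil arrays, a difference of means of -1.38. It was 0.09 to 0.97 on CPZ arrays, against 0.07 to 0.42 on PBS arrays, where the groups overlap.

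**Figure D3:**
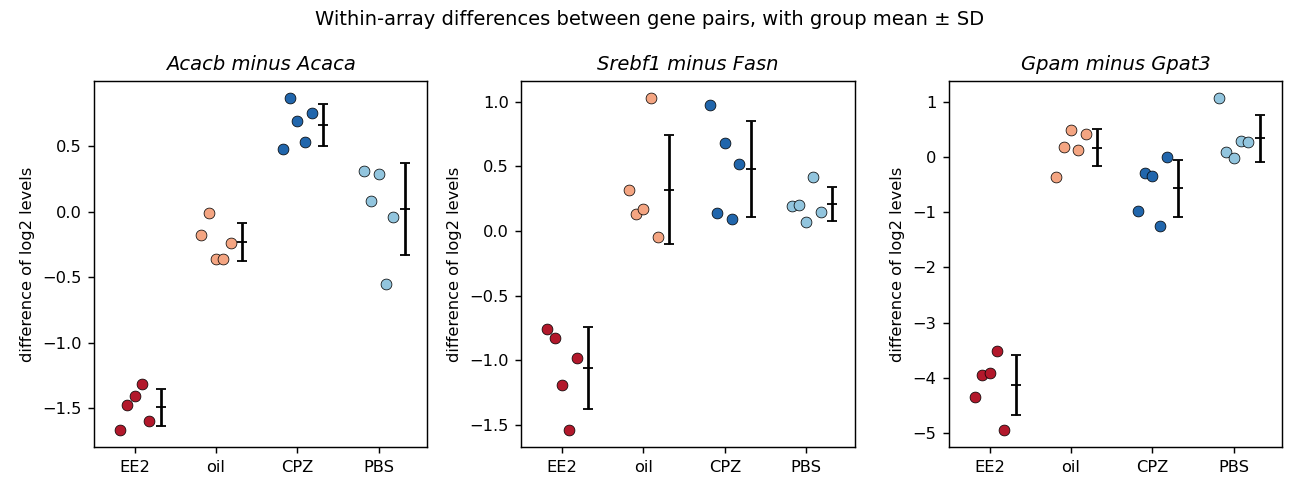
Difference of the log2 levels of paired genes (vertical axes) on each array in EE2, oil, CPZ and PBS livers, with group means ± SD (n = 5). EE2 arrays lie below all oil arrays in each panel, and CPZ arrays lie above all PBS arrays for Acacb minus Acaca. The pairs were chosen after their values had been seen.

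A list of SREBP and LXR regulation held SREBP processing factors, LXR and its partner RXR, and factors that bind beside SREBP. In EE2 livers 5 of its 12 genes rose and 4 fell, and after centring 4 rose and 5 fell. The list counts here are to be read against 19.2% of all genes called higher and 26.7% called lower. After centring the shares were 12.5% and 59.4%. Scap, which escorts SREBP to the Golgi, had 8.82, 8.86, 8.91, 8.82 and 8.82 on EE2 arrays, against 9.54, 9.68, 9.72, 9.74 and 9.77 on oil arrays. The 5 EE2 values nearly coincide and lie below all oil values, a fall of 0.84 (SE 0.05, limma adjusted p 4.5e-11). Insig2, which holds SCAP back in the endoplasmic reticulum, rose by 1.05 (adjusted p 6.49e-07), and Srebf2, whose product drives cholesterol synthesis, rose by 0.65 (adjusted p 1.98e-07). Nfyb, a subunit of the NF-Y factor that binds the CCAAT box, fell by 0.88 (adjusted p 3.88e-09). Nfya, another subunit of NF-Y, rose by 0.31 with overlapping arrays (adjusted p 0.00617). Nr1h3, which encodes LXR alpha, changed by 0.07 (95% interval -0.08 to 0.22, adjusted p 0.423). Among 10 other targets of LXR 6 rose and 2 fell (4 and 3 after centring): the sterol exporters Abcg1 by 1.18 and Abcg5 by 0.53 rose, and the phospholipid remodelling enzyme Lpcat3 fell by 0.40. Abca1, also a sterol exporter, fell by 0.18 (limma adjusted p 0.00959), so the exporters did not move in 1 direction.

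Genes of sugar entry and of NADPH supply included several that rose while Mlxipl fell. In the list of ChREBP partner and sugar genes 4 of 9 rose and 1 fell (3 and 2 after centring). For all genes the shares were 19.2% called higher and 26.7% called lower (12.5% and 59.4% after centring). Khk, the first enzyme of fructose breakdown, rose by 0.55, Tkfc, a later one, by 1.08, and Mlx, the binding partner of ChREBP, by 0.43. Pklr, the liver pyruvate kinase and a known ChREBP target, had 8.38, 8.66, 8.42, 8.95 and 8.13 on EE2 arrays, against 7.56, 8.00, 7.89, 7.46 and 8.41 on oil arrays. Its rise of 0.64 (limma adjusted p 0.0223) no longer passed after centring (0.48, adjusted p 0.0557), nor without EE2 array 17 (0.53), oil array 2 (0.57) or oil array 8 (0.54). In the list of citrate, acetyl-CoA and NADPH supply 3 of 11 rose and 3 fell (2 and 5 after centring). Pgd, a dehydrogenase of the pentose phosphate pathway that makes NADPH, had 9.63, 9.95, 9.78, 10.27 and 9.54 on EE2 arrays, against 8.05, 8.12, 7.98, 8.06 and 8.30 on oil arrays, a rise of 1.73 (adjusted p 7.45e-11). Tkt, the transketolase of the same pathway, rose by 0.70, and Pcx, the mitochondrial pyruvate carboxylase, fell by 0.26. Taldo1, its transaldolase, rose by 0.28 as deposited but did not pass after centring (0.12, adjusted p 0.0635).

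Downstream of palmitate, the genes of desaturation and elongation included 2 of 8 that rose and 4 that fell (1 and 5 after centring). Of all genes, 19.2% were called higher and 26.7% lower, or 12.5% and 59.4% after centring. Scd1, which makes oleate from stearate, had 8.59, 10.72, 9.76, 11.24 and 9.21 on EE2 arrays, against 11.84, 12.03, 11.65, 11.55 and 11.99 on oil arrays. All EE2 arrays were below all oil arrays, with a wide spread among them, and Scd1 fell by 1.91 (SE 0.32, limma adjusted p 5.66e-05). Elovl3, an elongase of very long fatty acids, was 3.48 ± 0.58 in EE2 and 10.12 ± 0.28 in oil livers (SD, n = 5 each), a measured fall of 6.64 (adjusted p 3.68e-16). Its EE2 level lies near the lower quartile of all genes (3.06), where background limits the signal, so 6.64 may understate the fall. In triglyceride assembly 4 of 15 rose and 5 fell (4 and 8 after centring). Gpat3, another glycerol-3-phosphate acyltransferase, located in the endoplasmic reticulum, had 8.86, 8.41, 8.07, 7.99 and 8.95 on EE2 arrays, against 5.46, 4.88, 4.24, 4.67 and 4.58 on oil arrays, a rise of 3.69 without overlap (adjusted p 6.35e-11). Gpat4, a further enzyme of the same step in the endoplasmic reticulum, fell by 0.67 (adjusted p 2.68e-06). Gpam minus Gpat3 was -4.95 to -3.51 on EE2 arrays, against -0.37 to 0.48 on oil arrays, and -1.25 to 0.00 on CPZ arrays, against -0.02 to 1.07 on PBS arrays.

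**Figure D4:**
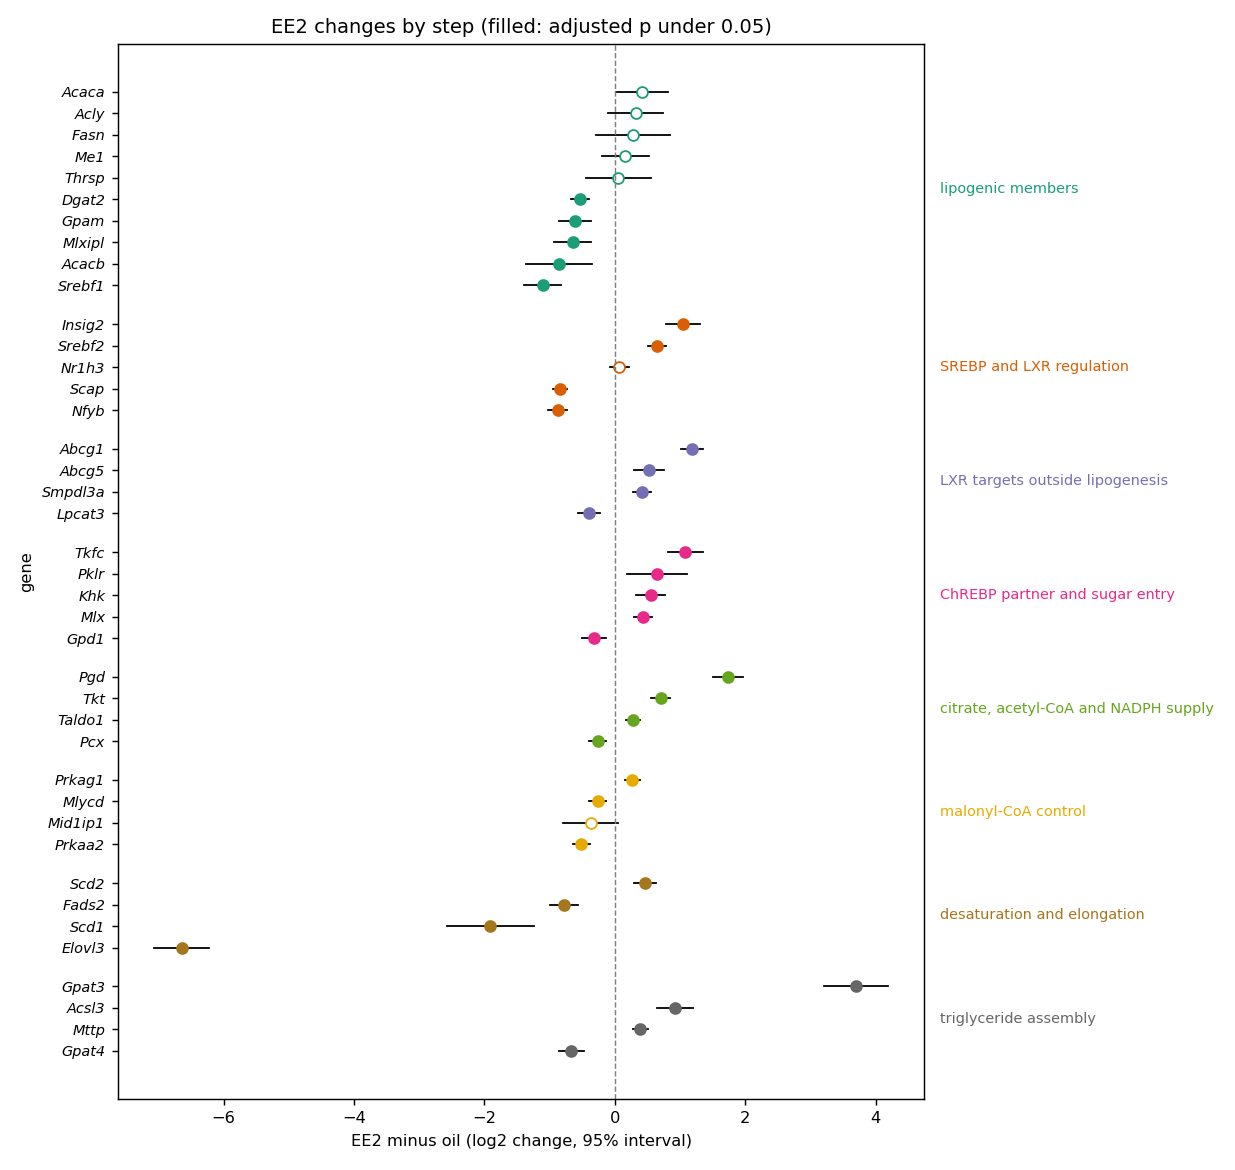
EE2 minus oil change (horizontal axis, log2, 95% intervals) of the members and of named genes of 7 other lists, grouped by step; filled points had a limma adjusted p under 0.05. Gpat3 lies at 3.69, and Elovl3 at -6.64, a size that its low EE2 level may understate.

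Other lists around the pathway are given by their counts, to be read against 26.7% of all genes called lower and 19.2% called higher, or 59.4% and 12.5% after centring. Of 6 genes of thyroid hormone receptors and response 5 fell and 0 rose (6 and 0 after centring), with a median of -0.42 beside -0.07 for all genes. Among them Dio1, the deiodinase that makes the active hormone, fell by 1.10, and Thra, a thyroid hormone receptor, by 0.39. Another, Hr, had a low oil mean of 3.26, near the lower quartile of all genes there (3.16). Of 13 insulin signalling genes 5 rose and 3 fell: Irs1, the docking protein below the insulin receptor, rose by 0.78 and Igfbp1, which insulin represses, by 2.42, while 4 fell after centring. Of 10 genes of malonyl-CoA control 1 rose and 2 fell (0 and 5 after centring), with Prkaa2, a catalytic subunit of the kinase that phosphorylates the carboxylases, falling by 0.52 and Mlycd, which breaks malonyl-CoA down, by 0.26. Prkag1, a regulatory subunit of that kinase, rose by 0.26, which did not pass after centring (0.10). Mid1ip1, the partner of Thrsp in carboxylase polymerization, changed by -0.37 (limma adjusted p 0.137), and by -0.53 after centring, where it passed. Of 11 other lipogenic or fed-state genes 3 rose and 2 fell (3 and 3 after centring): the lipid droplet gene Cidea rose by a measured 1.58, with an oil mean of 3.34 near the lower quartile of all genes there (3.16), and Ppp1r3c, a glycogen targeting subunit, fell by 1.74. Pnpla3, a lipid droplet acyltransferase and hydrolase that SREBP-1c induces, changed by -0.14 (adjusted p 0.504). Its means of 3.39 in oil and 3.25 in EE2 livers lie near the lower quartiles (3.16 and 3.06), so a fall could hardly be seen. Of 7 mitochondrial counterparts 1 rose, the malic enzyme Me2 by a measured 1.13 over a low oil mean of 3.69, and 3 fell (6 after centring), among them Oxsm, the ketoacyl synthase of mitochondrial fatty acid synthesis, by 0.39.

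CPZ left every member short of the threshold against PBS. By the same rule 0 of the 10 were called, beside 0.796% of all genes. An unadjusted limma p under 0.05 was found for 0 members, beside 2003 of the 16464 genes. The members' median change was -0.17. The widest changes were those of Fasn, with 10.00, 11.00, 10.19, 11.00 and 10.69 on CPZ arrays, against 11.32, 11.00, 11.26, 10.54 and 11.26 on PBS arrays, and of Acacb, with 8.45, 9.12, 8.45, 9.12 and 8.72, against 8.72, 8.18, 8.38, 7.86 and 8.60. Both pairs of groups overlap. The change was -0.50 for Fasn (95% interval -1.06 to 0.06, limma adjusted p 0.483) and 0.42 for Acacb (95% interval -0.08 to 0.93, adjusted p 0.521). For Thrsp it was -0.36 (95% interval -0.87 to 0.15), for Acly -0.25 (-0.67 to 0.17), for Srebf1 -0.23 (-0.51 to 0.06) and for Acaca -0.22 (-0.63 to 0.18). The intervals of Fasn, Thrsp, Acly and Acaca reach below -0.53, the change of Dgat2 with EE2, so falls of that size are not excluded there. Mlxipl at -0.03 (95% interval -0.32 to 0.25) and Dgat2 at -0.09 (95% interval -0.23 to 0.05) were bounded more tightly, and Me1 at -0.03 and Gpam at -0.12 completed the set. Of the 11 lists around the pathway, 1 gene was called: Mylip, an LXR target that degrades the LDL receptor, rose by 0.46 (adjusted p 0.0229). That call was lost when the 10 arrays were fitted alone (adjusted p 0.0758) and without CPZ array 4 (0.47), CPZ array 12 (0.44), PBS array 7 (0.40) or PBS array 19 (0.43). After centring, 1 of the 12 genes of SREBP and LXR regulation was also called, as lower with CPZ. Macrophage markers had a mean level of 7.55 to 8.47 on CPZ arrays, against 6.98 to 7.46 on PBS arrays, and 2 of the 9 rose.

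The vehicles differ, since sunflower oil is itself a fat and PBS is not, and oil arrays also serve as the control of EE2. Against PBS, 0 members were called in oil livers, beside 0.0486% of all genes. Srebf1 was the only member with an unadjusted limma p under 0.05 (0.0396), beside 1414 of the 16464 genes. Its level was 10.99 ± 0.27 in oil and 11.28 ± 0.21 in PBS livers (SD, n = 5 each). The change was -0.30 (95% interval -0.58 to -0.02, limma adjusted p 0.548). Fasn changed by -0.41 (95% interval -0.97 to 0.15), Acacb by -0.40 (-0.91 to 0.10) and Acly by -0.31 (-0.73 to 0.10). The remaining members ranged from -0.16 for Acaca and Thrsp to 0.15 for Me1. Scd1 was 11.55 to 12.03 on oil arrays and 12.24 to 12.58 on PBS arrays, a change of -0.61 that did not pass (limma adjusted p 0.631).

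The difference between the 2 responses, EE2 minus oil less CPZ minus PBS, was tested in the same model, and doses and vehicles differ. The same number of members as in the EE2 comparison, 5, were called lower and 0 higher, beside 17.0% of all genes called lower and 14.6% called higher. After centring 39.7% of all genes were called lower and 10.1% higher. The differences were -1.28 for Acacb (SE 0.34, limma adjusted p 0.00724), -0.88 for Srebf1 (SE 0.19, 0.00145), -0.62 for Mlxipl (SE 0.19, 0.018), -0.49 for Gpam (SE 0.17, 0.0313) and -0.44 for Dgat2 (SE 0.10, 0.00149). Leaving out 1 array ended the Gpam call in 7 of 20 cases, with an adjusted p of up to 0.0629 and changes of -0.47 to -0.41: EE2 array 15 or 18, oil array 2 or 5, CPZ array 3 or 12, or PBS array 20. Fasn at 0.78 (95% interval -0.02 to 1.57, adjusted p 0.129), Acaca at 0.63 (adjusted p 0.0855) and Acly at 0.57 (adjusted p 0.14) did not pass, nor did Thrsp at 0.41 and Me1 at 0.20. Without EE2 array 9 or without CPZ array 11 Acaca passed, at 0.76 (adjusted p 0.0367) and 0.75 (adjusted p 0.0371). Outside the members, Lpin1, a phosphatidate phosphatase of triglyceride synthesis, had a difference of 2.32 (adjusted p 2.17e-05), Gpat3 one of 2.90 and Pklr one of 1.10. Lpin1 changed by 1.39 with EE2, and the differences of Lpin1 and Pklr include CPZ changes of -0.93 and -0.46 that did not pass. Other genes had negative differences. Without 1 array that of Elovl3 lay between -7.55 and -7.23, and that of Scd1 between -2.02 and -1.36.

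Among arrays of 1 group, 6 of the other 9 members varied with Srebf1. The share of all genes that would pass the same test was not counted, so the count cannot be read as particular to the members. Each array's deviation from its group mean in Srebf1 was compared with its deviation in the other 9 members over all 20 arrays, with 100000 permutations within groups and Benjamini-Hochberg adjustment over the 9 relations. Acacb (r = 0.79, adjusted permutation p 0.00162; rho = 0.75, adjusted p 0.00486), Fasn (r = 0.78, adjusted permutation p 0.00162; rho = 0.66, adjusted p 0.00724) and Acly (r = 0.72, adjusted permutation p 0.0021; rho = 0.68, adjusted p 0.00724) followed Srebf1 most closely. Thrsp had r = 0.66 (adjusted permutation p 0.00515) and rho = 0.66 (adjusted p 0.00724). Acaca had r = 0.64 (adjusted permutation p 0.012) and rho = 0.60 (adjusted p 0.0163). Me1 had r = 0.64 (adjusted permutation p 0.0173), and its rho of 0.52 missed the threshold (adjusted p 0.0517). The 2 arrays farthest from the median were EE2 array 17 and oil array 2. With both left out, but still counted in their group means, r was 0.73 for Acacb, 0.71 for Fasn and 0.67 for Acly. It was 0.63 for Thrsp, 0.60 for Me1 and 0.46 for Acaca. These r still carry the pull of both arrays on their group means. The relations of Acaca and Me1 rested on EE2 array 17. Without it, and with the group mean taken from the remaining arrays, both had r = 0.44. Neither then passed (adjusted permutation p 0.106 for Acaca and 0.149 for Me1). Me1 also missed the threshold without PBS array 19 (r = 0.57, adjusted permutation p 0.0694). In the 15 arrays outside EE2, Acacb and Fasn each had r = 0.71, Thrsp 0.64 and Acly 0.59 (adjusted permutation p 0.0291 for each), and Acaca and Me1 did not pass.

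Mlxipl (r = 0.46, adjusted permutation p 0.129; rho = 0.37, adjusted p 0.21), Gpam (r = 0.35, adjusted permutation p 0.155; rho = 0.32, adjusted p 0.21) and Dgat2 (r = -0.11, adjusted permutation p 0.72; rho = 0.08, adjusted p 0.768) did not pass. So Fasn followed Srebf1 from array to array within groups, while no change of its mean passed the test in the EE2 livers, in which Srebf1 was 2.15-fold lower. EE2 array 17 was the highest of its group for 8 of the 10 members and the lowest for Dgat2, and EE2 array 9 was the lowest for 5. CPZ arrays 1 and 4 were each the lowest of their group for 5 members, and PBS array 19 for 7. Genes whose deviations were most like the mean deviation of the members over the 20 arrays were 1810008I18Rik (r = 0.87), Slc25a44 (0.87), Acss2 (0.85), Pgd (0.85), Elovl6 (0.84) and Pygl (0.83), given as a description of these arrays.

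**Figure D5:**
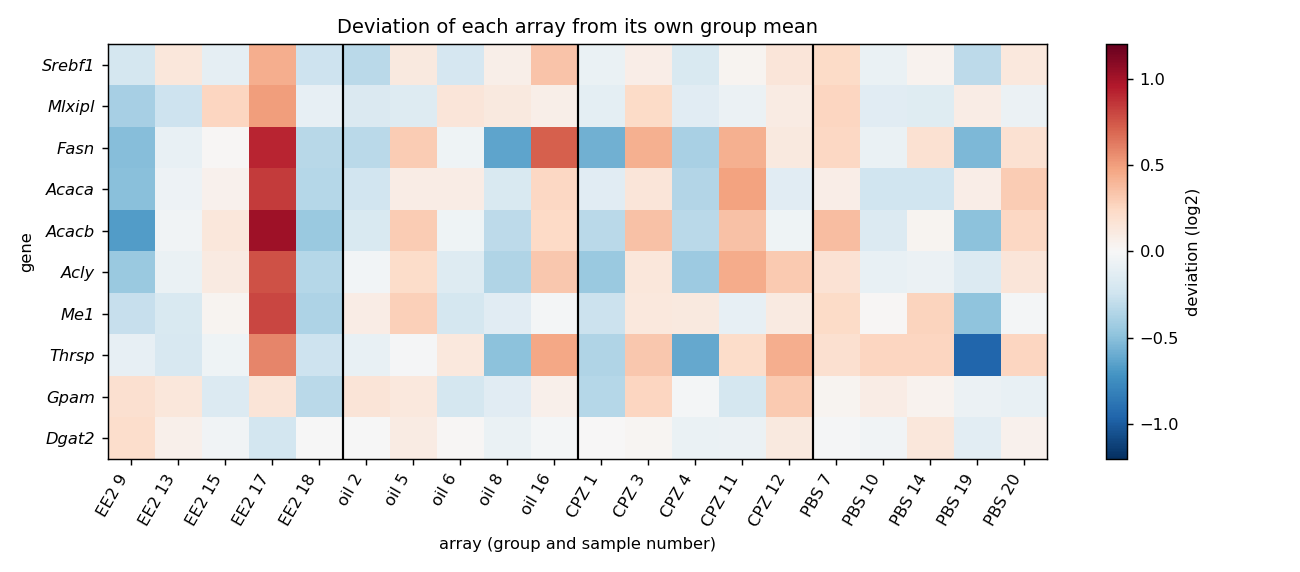
Deviation of each array from its own group mean (colour, log2) for each member (rows) and array (columns, named by group and sample number). EE2 array 17 is above its group mean for 9 of the 10 members, and PBS array 19 is low for Thrsp, Fasn, Acacb and Me1.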

How the data were processed

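Liver RNA was labelled by the Affymetrix 3' IVT kit, per the labels' protocols. The deposited log2 levels, between 1.91 and 14.2, were made by the authors with RMA, per the submitters' processing notes. They were used as deposited, with no filter. Probe sets carry 1 Entrez gene number each; the probe definition, the genome build and the set of arrays that RMA took together were not given in the sources used here. Symbols came from the platform annotation: 16464 probe sets had 1, 0 several and 842 none. The number of arrays limits the precision.

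limma 3.58.1 in R 4.3.3 fitted 4 group means to all 20 arrays (16 residual and 4.25 prior degrees of freedom), for 4 comparisons, two-sided. The members and lists were chosen with earlier results of these data known. Named from a list were up to 4 called genes with the smallest p for EE2 minus oil, up to 6 called genes for the other comparisons, and 6 genes whatever their result (Scd1, Srebf2, Pklr, Mid1ip1, Pnpla3 and Nr1h3). Abca1 and Nfya were named besides, because they moved against related genes named beside them. The 11 pathway lists and 7 marker lists give counts. Alternatives were quantile normalization, centring, leaving out the 30% lowest genes, array weights, a robust prior with an intensity trend, the 10 arrays compared alone, and each array left out. The limma fit was first tested on simulated data. No sample number occurs in more than 1 group, so none was used as a block.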

Additional observations from a re-analysis of the deposited data

Results flagged for a closer look

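Of 40 sets of 5 arrays (10 members in 4 groups), 2 held an array whose gap to the nearest other array took up more than 0.71 of the range, Dixon's 95% critical value, and chance alone passes about 1 set in 20. Both concern Thrsp, which encodes Spot 14. Its level was 12.89 on EE2 array 17, while the other EE2 arrays lay between 12.06 and 12.25 (gap over range 0.772). It was 11.46 on PBS array 19, while the other PBS arrays lay between 12.61 and 12.67 (gap over range 0.951). EE2 array 17 was the highest of its group for 8 of the 10 members, and PBS array 19 the lowest of its group for 7.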

How the results depend on the processing

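The falls of Srebf1, Mlxipl, Acacb, Gpam and Dgat2 with EE2 kept their direction and their call under all 26 alternative settings. Leaving out 1 array left 5 members lower with EE2, and 0 to 1 higher (Acaca, without EE2 array 9); for the difference of responses 4 to 5 were lower and 0 to 1 higher. After centring 11846 genes were called with EE2 and 8194 for the difference of responses, against 7560 and 5209; the centred calls were 9784 lower and 2062 higher with EE2, and 6530 lower and 1664 higher for the difference. With CPZ the count was 237 with array weights, 64 from its own 10 arrays and 47 to 158 without 1 array, against 131; for oil against PBS it was 13 with a trend and robust prior, 0 from its own 10 arrays and 2 to 19 without 1 array, against 8. Directions turned for values that were not called. With EE2 these were Thrsp (-0.11 centred, -0.09 to 0.17 without 1 array), Me1 (-0.04 to 0.26) and Nr1h3 (-0.09 centred). With CPZ they were Mlxipl (0.02 with array weights, -0.09 to 0.03), Me1 (-0.15 to 0.03) and Pnpla3 (-0.00 centred, -0.15 to 0.11). For oil against PBS they were Gpam (-0.01 with array weights, -0.04 to 0.05), Dgat2 (-0.00 to 0.07) and Pklr (-0.28 to 0.07). For the difference of responses they were Me1 (-0.00 to 0.32), Mid1ip1 (-0.01 to 0.30), Pnpla3 (-0.26 to 0.01) and Nr1h3 (-0.08 to 0.02). The relation of Dgat2 to Srebf1 ran from -0.28 to 0.29 without 1 array, with r 0.40 in the 15 arrays outside EE2 and rho 0.08 over all. The within-array differences, whose alternatives were chosen after seeing the data, kept their direction under quantile normalization and without each array. The cause of these changes was not tested. No paired analysis was possible because the groups share no sample number. Gpam levels lie near the array medians, where signal over background limits the size of a change.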
